A study of Rattus norvegicus with 2 samples.

Results

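Chaperones help other proteins reach and keep their folded shape. Those measured here were the heat shock proteins and the DnaJ proteins of IEC-6, a rat line labelled as epithelial cells of the small intestine. Gene symbols were matched to the Hspa, Hspb, Hspd, Hspe, Hsph and Hsp90 series and to the Dnaja, Dnajb and Dnajc series, which found 69 genes. The endoplasmic reticulum (ER) chaperones Hspa5, Hsp90b1 and Dnajb9 and the genes Hspbap1, Hspbp1 and Hspb11, whose products are not heat shock chaperones, were left out. This left 63 chaperone genes of the 18256 genes named in either library. A level of at least 5 CPM (a gene's counts scaled to a library total of 1000000) in either library was reached by 48 of them.

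The series holds 2 single-cell libraries of IEC-6 cells and no replicates. Per the labels, the treated cells went through 10 cycles of 72 hours each with recombinant rat tumor necrosis factor (TNF) at 100 ng/mL. TNF is an inflammatory cytokine. The labels give the control phosphate-buffered saline, also over 10 cycles, with no cycle length stated. Both came from the same growth medium, were frozen, and were thawed and washed before library preparation. The titles of the 2 samples carry different prefixes of unstated meaning, so preparation and treatment cannot be told apart, and directions are given for the TNF-labelled library. No test between conditions was possible. Levels are given with the TNF-labelled library first and the control library second, ratios are the former over the latter, and each interval in parentheses is a 95% interval for counting error only.

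There were 14604393 counts in 3457 TNF-labelled cells and 24207943 counts in 5712 control cells, at medians of 3566 and 2902.5 counts per cell. The libraries shared 24 cell barcodes. Markers of epithelium summed to 2812 against 3615 CPM, most of it Krt8 (2193 against 2456 CPM). Of 7 with at least 5 CPM, 5 passed 1.5-fold downward, against 22.9% of all genes. Their median log2 ratio was -1.79, against -0.08 for all genes. Markers of fibroblasts summed to 2199 against 3457 CPM, most of it Vim (1681 against 2810 CPM), and 3 of 5 passed 1.5-fold downward, against 22.9% of all genes. Of 8 genes that define intestinal epithelium only Cdx2 and Lgals4 reached 5 CPM, and Epcam had 4 counts in each library. Markers of white blood cells summed to 38.5 and 108 CPM over 9 genes, nearly all of it Cd14, with 2 and 18 counts of the defining gene Ptprc. Early response genes, which cells switch on within minutes of stress or handling, summed to 2711 against 5430 CPM, and 14 of 16 passed 1.5-fold downward, against the same 22.9%. Genes of dividing cells summed to 1540 against 1302 CPM, with Top2a at 355 against 136 CPM. Of 10 tested, 5 had ratios above 1 and 5 below, with a median log2 ratio of -0.18. At 1.5-fold 2 were higher and 3 lower, against 17.1% and 22.9% of all genes. The part of these gene groups in the results below was not tested.

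Hsp70 proteins bind exposed stretches of unfolded protein in a cycle driven by ATP. DnaJ proteins bring them their substrates and trigger hydrolysis, Hsp110 proteins exchange the nucleotide, and Hsp90 receives many partly folded clients, among them kinases and steroid receptors. Small heat shock proteins hold unfolded proteins without ATP, and the mitochondrial chaperonin encloses imported proteins in a chamber. After heat or other proteotoxic stress the transcription factor HSF1 binds repeats of the letters GAA and TTC, called heat shock elements, in front of many of these genes.

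Heat shock elements, the letters HSF1 is known to bind, were sought in the promoters. Promoter windows of 250 bases before to 50 bases after the start were found in RefSeq (build GRCr8, another assembly than that of the counts) for 50 of the 63 chaperone genes. The letters GAANNTTC and TTCNNGAA, each of which reads the same on both strands, were searched as 2-unit elements. A 3-unit run, in which GAA and TTC alternate 3 times at gaps of 2 bases, was searched on both strands and always holds 2-unit elements. Of the 50 windows 16, or 32.0%, held a 2-unit match, against 15.9% of all 33469 windows, and 5, or 10.0%, held a 3-unit run, against 0.798%. Those 5 belong to Hspa8, Hsph1, Dnaja1, Hspd1 and Hspe1, and the run of Dnaja1 lies after the start. The 50 windows are 1 per gene, while the 33469 were not limited to 1 per gene. The shares are therefore not of like units. The neighbouring genes Hspd1 and Hspe1 run in opposite directions, their windows share 211 bases, and both hold the same run of 18 bases. Sequences are shown for 3 of the 5 genes with a 3-unit run and for Dnajb1 and Hspb1, known HSF1 targets with 2-unit matches only, with the matches in capitals. They are the bases before the start, or for Hspe1, whose window lies in the annotated span of Hspd1, the 30 bases round the run.
Hspa8, chr8:50080264-50080513, plus strand: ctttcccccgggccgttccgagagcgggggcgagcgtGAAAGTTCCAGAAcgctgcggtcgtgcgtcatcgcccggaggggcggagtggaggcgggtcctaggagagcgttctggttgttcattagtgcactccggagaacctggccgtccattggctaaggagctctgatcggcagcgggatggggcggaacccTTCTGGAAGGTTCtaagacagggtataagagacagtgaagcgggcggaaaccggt
Hsph1, chr12:10427118-10427367, plus strand: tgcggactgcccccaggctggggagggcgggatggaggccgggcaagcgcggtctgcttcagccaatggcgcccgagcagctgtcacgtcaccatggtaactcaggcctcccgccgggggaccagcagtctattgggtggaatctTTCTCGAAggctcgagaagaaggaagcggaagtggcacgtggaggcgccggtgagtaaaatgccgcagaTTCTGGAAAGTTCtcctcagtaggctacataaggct
Hspe1, chr9:64084256-64084285, plus strand: gctcggTTCTAGAACCTTCCGGAAggcccc
Dnajb1, chr19:41431142-41431391, minus strand: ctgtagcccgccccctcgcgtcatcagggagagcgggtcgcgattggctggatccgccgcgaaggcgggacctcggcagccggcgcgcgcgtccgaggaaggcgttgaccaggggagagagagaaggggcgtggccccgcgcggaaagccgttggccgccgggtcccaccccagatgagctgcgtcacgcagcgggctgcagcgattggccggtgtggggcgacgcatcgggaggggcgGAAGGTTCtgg
Hspb1, chr12:26432302-26432551, minus strand: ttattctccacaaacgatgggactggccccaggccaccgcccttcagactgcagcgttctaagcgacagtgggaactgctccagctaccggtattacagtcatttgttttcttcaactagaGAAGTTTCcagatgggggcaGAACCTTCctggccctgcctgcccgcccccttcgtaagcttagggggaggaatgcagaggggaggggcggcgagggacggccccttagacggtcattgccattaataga

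Together the 63 chaperone genes took nearly the same share of all counts in both libraries, 0.584% (0.581 to 0.588, exact binomial) against 0.591% (0.588 to 0.594). Single genes differed in both directions. Of the 48 genes with at least 5 CPM, 4 were at least 2-fold higher in the TNF-labelled library (8.33%, against 5.70% of all 9740 genes at that level) and 2 at least 2-fold lower (4.17%, against 8.97%). At 1.5-fold, 10 were higher (20.8%, against 17.1%) and 6 lower (12.5%, against 22.9%). Counting both directions, 6 passed 2-fold, against 14.7% of all genes, and 16 passed 1.5-fold, against 39.9%. The 4 genes past 2-fold upward were Dnajb4, Dnaja4, Dnajc6 and Hspa9, and the 2 past 2-fold downward were Dnajc12 and Dnajc22. The median log2 ratio of the 48 was 0.12, and that of all 9740 genes was -0.08. The quartiles of the 48 lay at -0.40 and 0.43, and those of all genes at -0.54 and 0.41.

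The split between higher and lower genes moved with the scaling. Median-of-ratios size factors, which shifted the median of all genes by 0.21 on the log2 scale, gave 13 higher and 3 lower chaperone genes at 1.5-fold in place of 10 and 6. TMM factors shifted that median by 0.16 and gave 12 and 5. Each of these scalings moves every gene alike. The shares of all genes past 1.5-fold were not computed for them, so these counts have no background to be read against.

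**Figure D1:**
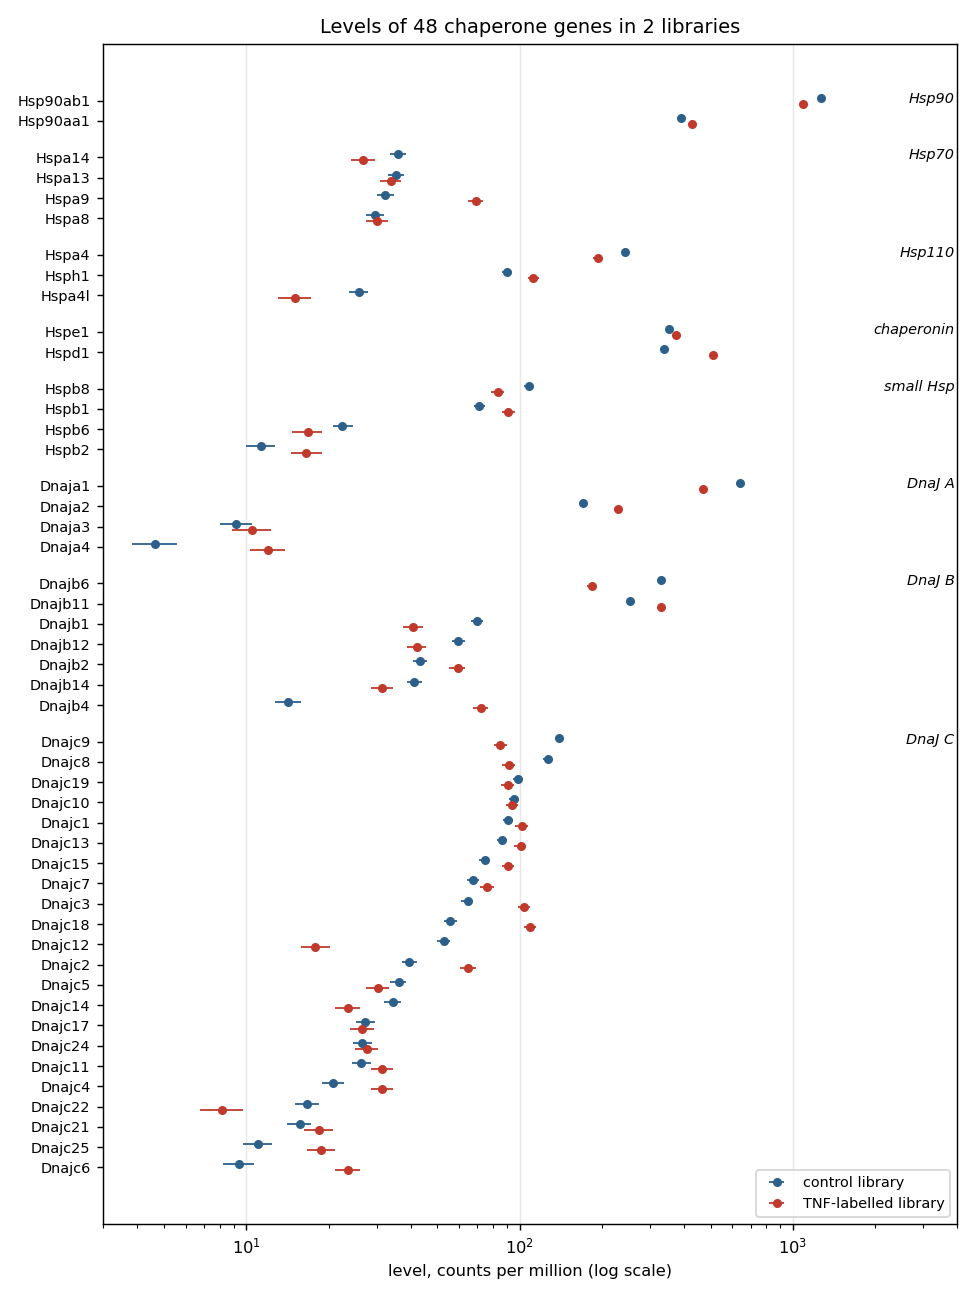
Level of each of the 48 chaperone genes (horizontal axis, CPM, log scale) in the TNF-labelled library (red) and the control library (blue), grouped by family, with exact Poisson 95% intervals as bars. The libraries are to be compared within a gene. Dnajb4 has the widest gap, at 72.1 against 14.2 CPM.

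**Figure D2:**
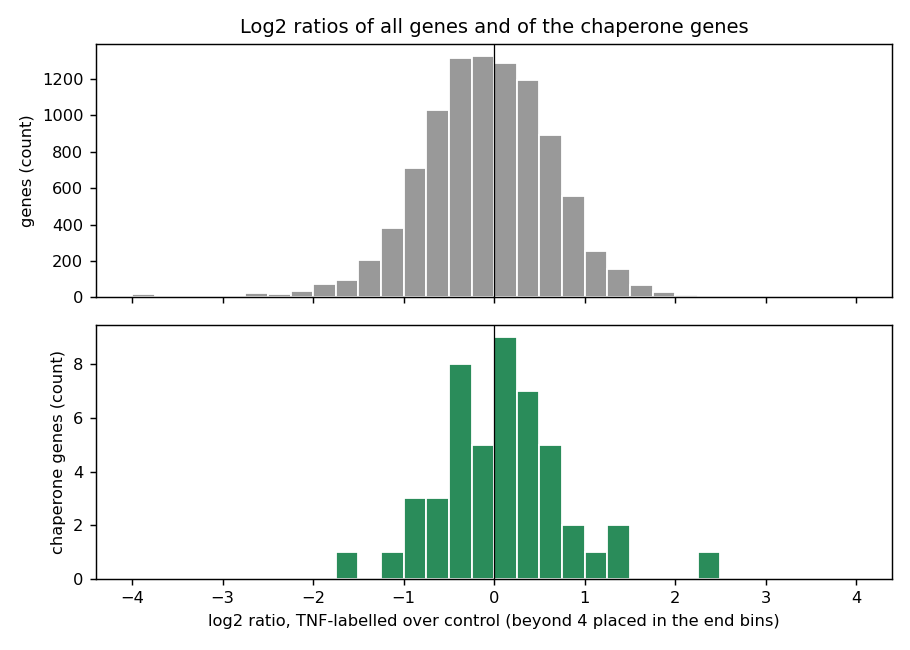
Number of genes (vertical axes) by log2 ratio, TNF-labelled over control (horizontal axis), for all 9740 genes (top) and the 48 chaperone genes (bottom), in bins of equal width. The medians are -0.08 and 0.12, and the chaperone genes spread to both sides of 0.

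Hsp90 is made in the cytosol from 2 genes. Hsp90aa1, the form that heat induces, stood at 427 against 388 CPM (ratio 1.10, 1.07 to 1.14). Hsp90ab1, the constitutive form, stood at 1085 against 1262 CPM (ratio 0.860, 0.843 to 0.876). The ratios lay on opposite sides of 1. With median-of-ratios factors they were 1.27 for Hsp90aa1 and 0.992 for Hsp90ab1, and with TMM factors 1.23 and 0.963. RefSeq names 23 pseudogenes after Hsp90ab1 and 16 after Hsp90aa1, and the sources used here do not give how reads shared with such copies were counted, which makes their levels uncertain.

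Among the cytosolic Hsp70 genes, Hspa8, which encodes the constitutive Hsc70, was at 30.1 against 29.6 CPM (ratio 1.02, 0.903 to 1.15). With 33 pseudogenes named after it, more than after any other of the 63 genes, its level is uncertain too. Hspa1a, the Hsp70 gene that heat and other proteotoxic stress switch on, stayed below the minimum of 5 CPM, with 54 counts (3.70 CPM) and 68 counts (2.81 CPM). Its ratio of 1.32 had an interval of 0.903 to 1.91, so no difference was detectable at this depth. The near-identical neighbour Hspa1b was, by symbol, in neither library's gene list and could not be measured. Hspa14, which works at the ribosome together with Dnajc2, stood at 26.8 against 35.9 CPM (ratio 0.745, 0.659 to 0.840). Hspa1l, Hspa2, Hspa12a and Hspa12b had at most 36 counts in either library.

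The Hsp110 genes, whose products exchange nucleotide on Hsp70, differed among themselves. Hspa4 stood at 193 against 244 CPM (ratio 0.790, 0.755 to 0.827) and Hspa4l at 15.1 against 25.8 CPM (ratio 0.584, 0.499 to 0.683), both lower in the TNF-labelled library. Hsph1, which heat is known to induce, stood at 112 against 89.8 CPM and was higher there (ratio 1.25, 1.17 to 1.33). These 3 directions were kept with all 3 other scalings, each of which moves every gene alike.

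Of the small heat shock protein genes of the Hspb series, 4 were tested and none passed 1.5-fold. Hspb2 did so with TMM or median-of-ratios factors, without the Top2a-high clusters and without the shallowest cluster of each library. Cryab, which the symbol series did not match, stood at 160 against 98.6 CPM (ratio 1.63, 1.53 to 1.72). Hspb1 (Hsp27), which also binds actin filaments, was at 91.0 against 71.3 CPM (ratio 1.28, 1.19 to 1.37). Hspb8, a partner of the co-chaperone Bag3, was at 83.2 against 108 CPM (ratio 0.772, 0.721 to 0.827). Hspb2 had a ratio of 1.48 (1.24 to 1.76) and Hspb6 one of 0.745 (0.638 to 0.868). Hspb7 had 4 counts and 0 counts, and was absent from the control library's gene list.

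Of 7 mitochondrial chaperone genes tested, 6 had a ratio above 1, as did 4484 of all 9740 genes. Hspa9 and Hspd1 passed 1.5-fold upward, 2 of 7 against 17.1% of all genes, and Hspa9 alone did so with totals without mitochondrial and ribosomal protein genes, without the Top2a-high clusters or without the shallowest cluster of each library. Dnajc30, a mitochondrial gene under the minimum, had a ratio of 0.507 (0.314 to 0.795). The median log2 ratio was 0.25, against -0.08 for all genes. With the 3 other scalings it was 0.23 to 0.46, while that of all genes was -0.10 to 0.13. Each scaling moves every gene alike, so the sign of the group's median was no separate check. Hspa9, the Hsp70 of the mitochondrial matrix that pulls proteins through the import pore, stood at 69.2 against 32.2 CPM (ratio 2.15, 1.95 to 2.36). Hspd1, the chaperonin Hsp60, stood at 510 against 337 CPM (ratio 1.51, 1.47 to 1.56). Its lid Hspe1, which shares the promoter run shown above, stood at 375 against 351 CPM (ratio 1.07, 1.03 to 1.11). The intervals of the ratios of Hspd1 and Hspe1 did not overlap. RefSeq names 20 pseudogenes after Hspd1 and 1 after Hspe1, which makes the level of the former more uncertain. Dnajc15 and Dnajc19, J proteins of the import motor, had ratios of 1.22 and 0.915. Dnajc11, a protein of the inner membrane's contact sites, and Dnaja3, the DnaJ A protein of the matrix, had ratios of 1.19 and 1.14. Other mitochondrial quality control genes, from the Hsp90 relative Trap1 to the matrix proteases, were measured too. Among 12 tested, 1 passed 1.5-fold upward and 2 downward, against 17.1% and 22.9% of all genes, and the median log2 ratio was -0.16. Trap1 had the smallest ratio, 0.539, and Grpel2, a nucleotide exchange factor of Hspa9, the largest, 1.84.

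In the DnaJ A family, Dnaja1 and Dnaja2, the general DnaJ partners of cytosolic Hsp70, pointed in opposite directions. Dnaja1 stood at 470 against 638 CPM (ratio 0.737, 0.716 to 0.758). Dnaja2 stood at 229 against 171 CPM (ratio 1.34, 1.28 to 1.40). Dnaja4, a further cytosolic member, stood at 12 against 4.63 CPM (ratio 2.59, 2.03 to 3.31). It was the only one of the 48 genes to reach 5 CPM in 1 library alone, so that its presence among them rests on its higher level. Just inside the minimum lay Dnaja4 and Dnaja3 (10.5 and 9.21 CPM), and just outside lay Hspa1a, Dnajb5 (1.37 and 3.51 CPM), Dnajc30 (1.78 and 3.51 CPM) and Dnajc16 (2.88 and 1.65 CPM).

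The DnaJ B family held the gene with the largest ratio of all 48. Dnajb4, a close relative of Dnajb1, had 1053 counts (72.1 CPM, 67.8 to 76.6) against 344 counts (14.2 CPM, 12.7 to 15.8). The ratio was 5.07 (4.49 to 5.75), and it ranged from 4.99 to 5.86 over the other settings. Dnajb1 (Hsp40), the stress-inducible partner of Hsp70, went the other way, at 40.7 against 69.9 CPM (ratio 0.583, 0.530 to 0.641). Dnajb6, which keeps aggregation-prone proteins soluble, was lower as well, at 184 against 330 CPM (ratio 0.557, 0.533 to 0.582), with 10 pseudogenes named after it. Dnajb2 had a ratio of 1.37 (1.25 to 1.5).

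A Dnajb4 count was found in 12.1% of the TNF-labelled cells (exact binomial interval 10.9 to 13.4, 2728 cells) and in 2.25% of the control cells (1.85 to 2.71, 4753 cells) after thinning each to 1700 counts. Shallower cells, 729 and 959 of them, had no thinned value. Before thinning the shares were 22.9% and 5.58%, at medians of 3566 and 2902.5 counts per cell. No cell type that should lack the gene was present, so a background from free RNA was not measured.

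In the ER 9 chaperone genes were tested, of which 2 passed 1.5-fold upward and 0 downward, against 17.1% and 22.9% of all genes. The median log2 ratio was -0.03, but 0.14 with TMM and 0.18 with median-of-ratios factors. Dnajc3, a lumenal partner of the Hsp70 BiP that is known for restraining the stress kinase PERK, stood at 104 against 64.5 CPM (ratio 1.61, 1.5 to 1.73). Dnajc18, a J protein of the ER membrane, stood at 109 against 55.8 CPM (ratio 1.96, 1.82 to 2.11). Dnajb11, another BiP partner, stood at 329 against 253 CPM (ratio 1.30, 1.25 to 1.35), and Dnajc1 at 102 against 90.4 CPM. Dnajb12 and Dnajb14, membrane J proteins that pair with cytosolic Hsc70, had ratios of 0.706 and 0.764, on the other side of 1 from Dnajc18. Dnajc14 had the lowest ratio of the group, 0.684. Dnajc10, which reduces disulfide bonds, and Hspa13 had ratios of 0.982 and 0.955. Of the ER chaperones left out of the set, Dnajb9 stood at 8.15 against 31.9 CPM (ratio 0.255), while Hspa5 (BiP) had a ratio of 0.759.

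The 3 nuclear DnaJ C genes had ratios below 1, as did 5256 of all 9740 genes. Their median log2 ratio was -0.47, and -0.50 to -0.27 with the 3 other scalings, each of which moves every gene alike. Dnajc9, which hands newly made histones H3 and H4 to chromatin, stood at 85.0 against 139 CPM (ratio 0.610, 0.571 to 0.651). Dnajc8, found with splicing complexes, stood at 91.3 against 127 CPM (ratio 0.721, 0.675 to 0.769). Dnajc17 had a ratio of 0.973, and its interval of 0.856 to 1.1 held 1.

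J proteins of vesicles were led by Dnajc6, or auxilin, which strips clathrin from coated vesicles. It stood at 23.5 against 9.38 CPM (ratio 2.50, 2.11 to 2.98). Dnajc13, an endosomal protein, stood at 101 against 86.2 CPM (ratio 1.17, 1.09 to 1.25), and Dnajc5, the cysteine string protein of secretory vesicles, had a ratio of 0.839. Dnajc5b, Dnajc5g and Dnajc27 had at most 23 counts in either library.

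Among the remaining cytosolic DnaJ C genes, Dnajc12, known for binding the hydroxylases of aromatic amino acids, had the smallest ratio of the 48. It stood at 17.9 CPM from 262 counts against 52.8 CPM from 1279 counts, 2.95-fold lower in the TNF-labelled library (ratio 0.340, 0.296 to 0.388). Dnajc2, which sits on ribosomes, stood at 64.8 against 39.4 CPM (ratio 1.64, 1.5 to 1.80), opposite to its partner Hspa14. Dnajc7, Dnajc21 and Dnajc24 had ratios of 1.12, 1.18 and 1.04. Dnajc22, Dnajc25 and Dnajc4 were given no compartment. Dnajc22 was at 8.15 against 16.7 CPM (ratio 0.487, 0.394 to 0.599), Dnajc25 at 18.8 against 11 CPM (ratio 1.71, 1.44 to 2.04) and Dnajc4 at 31.4 against 20.8 CPM (ratio 1.51, 1.32 to 1.71).

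**Figure D3:**
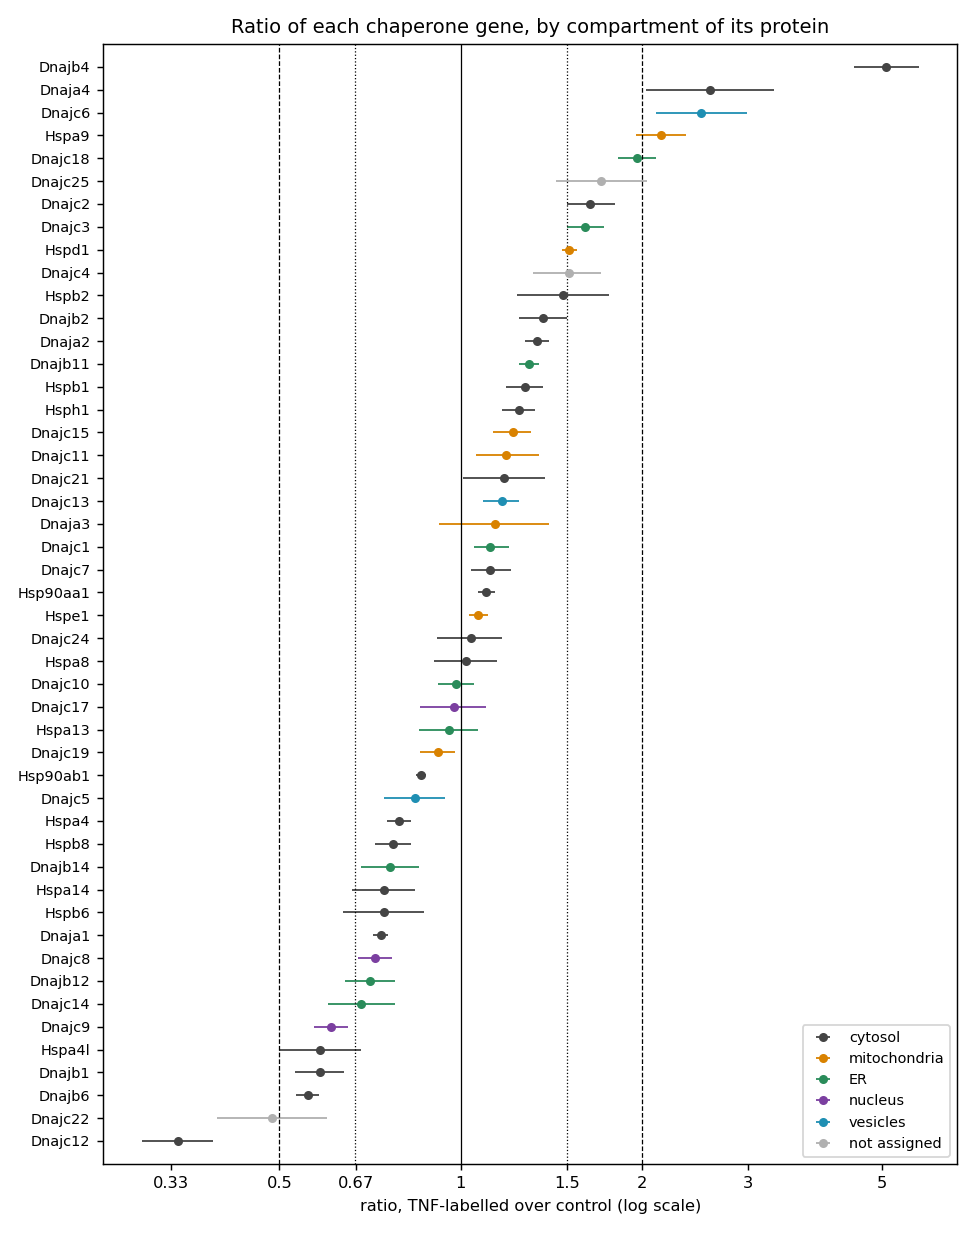
Ratio, TNF-labelled over control (horizontal axis, log scale), for the 48 chaperone genes in order of ratio, coloured by the compartment of the protein, with exact conditional binomial 95% intervals as bars. Dotted and dashed lines mark 1.5-fold and 2-fold. Ratios run from 0.340 for Dnajc12 to 5.07 for Dnajb4, and 6 of the 7 mitochondrial genes lie above 1.

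Known HSF1 targets were found on both sides of 1. Of 13 chaperone genes on that list with at least 5 CPM, 2 (Dnajb4 and Hspd1) passed 1.5-fold upward and 2 (Dnajb1 and Hspa4l) downward, and the median log2 ratio was 0.03. Among all genes 17.1% passed upward and 22.9% downward. With median-of-ratios factors Dnajb1 (0.673) and Hspa4l (0.675) no longer passed, and Hspd1 fell short under 3 settings (1.42 to 1.49). Of 12 other targets on the list, 1 was higher and 5 lower by 1.5-fold, against the same shares, with a median of -0.43, and Chordc1, an Hsp90 co-chaperone, was lowest at 44.2 against 110 CPM (ratio 0.400). Hsf1, the gene of the factor itself, was at 13.9 against 30 CPM (ratio 0.463, 0.394 to 0.541), and its relative Hsf2 at 203 against 111 CPM (ratio 1.83). The 5 genes with a 3-unit heat shock element in the window had ratios of 0.737 to 1.51 and a median log2 ratio of 0.10. The 8 with 2-unit matches only had ratios of 0.557 to 2.15 and a median of -0.40, and the 24 with no match had a median of 0.07. Only 37 of the 48 genes had a window. Those without one include Dnajb4 and Dnajc12, which had the largest and the smallest ratio.

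Partners of Hsp90 and Hsp70 were measured alongside. Of 21 Hsp90 co-chaperones tested, 2 passed 1.5-fold upward and 6 downward, against 17.1% and 22.9% of all genes. Their median log2 ratio was -0.19, and they summed to 1842 against 2730 CPM. Chordc1, Cdc37, Ptges3 and Cacybp, all lower by 1.5-fold, are also among the HSF1 targets above. So are Ahsa1, Fkbp4 and Stip1, which did not pass 1.5-fold. The results for the Hsp90 co-chaperones and for those targets are therefore not independent. Besides Chordc1, Ptges3 (p23), which stabilises Hsp90 bound to its client, was at 330 against 680 CPM (ratio 0.486). Of 14 Hsp70 exchange factors and co-chaperones, 4 were higher and 2 lower by 1.5-fold, against the same shares, with a median of -0.01, and the exchange factor gene Bag4 had a ratio of 2.37.

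The cells of each library were clustered without 208 genes: the chaperones, their partners, the marker genes, Top2a included, and the early response genes. This gave 5 TNF-labelled and 6 control clusters. All but 1, a TNF-labelled cluster of 24 cells, held at least 100 cells. Summed over the 48 genes, the chaperone level ran from 5579 to 6224 CPM over the 4 larger TNF-labelled clusters and from 5610 to 6315 CPM over the 6 control clusters. For 12 of the 48 genes (against 16% of all 9740 genes) every larger TNF-labelled cluster lay above every control cluster, and for 9 (against 22.1%) every one lay below. The clusters overlapped for the other 27. Clusters share their library, so this describes how evenly a difference ran through the cells and is no replication of it.

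Dnajb4 was among the 12. It lay at 65.8, 56.4, 63.7 and 96.4 CPM in TNF-labelled clusters 0 to 3, highest in cluster 3, led by Aldh1a7, Cpa6 and Syt1. In the control clusters it lay between 10.3 and 16 CPM. Hspa9 was even within both libraries, at 65.9 to 71.9 CPM in the TNF-labelled clusters and 30.3 to 33.4 CPM in the control clusters. Dnajb6 was among the 9, at 167 to 194 CPM against 257 to 426 CPM, and Dnaja1 too, at 400 to 539 CPM against 576 to 719 CPM.

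Hspb1 varied among the control clusters, the highest of which was 2.89-fold above the lowest. Control clusters 2 (led by Tchhl1, Bend7 and Tenm3) and 4 (with Plxna4a and Zfp385d among its leading genes) stood at 31.5 (25.1 to 39.0) and 33.9 CPM (28.2 to 40.5), while the other 4 control clusters stood at 67.0 to 91.0 CPM. The TNF-labelled clusters stood at 81.2 to 100 CPM, overlapping the control clusters. Hspa4l, at 9.46 CPM in control cluster 4 and 17.8 to 35.6 CPM in the other control clusters, was uneven as well, and Hspb2 was lowest in control cluster 2, at 3.00 CPM.

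Dnajc9 was highest where dividing cells gathered. The clusters with the most Top2a, which marks dividing cells, were TNF-labelled cluster 1 (936 CPM of Top2a) and control cluster 5 (413 CPM). Dnajc9 stood at 129 CPM (118 to 141) in the former, against 56.6 to 101 CPM in the other larger TNF-labelled clusters, and at 229 CPM (212 to 247) in the latter, against 105 to 175 CPM in the other control clusters. Hspd1 was also highest in these clusters, at 637 CPM in TNF-labelled cluster 1, where the other larger clusters stood at 421 to 555 CPM, and at 429 CPM in control cluster 5, where the others stood at 301 to 377 CPM. Hspe1 reached 435 and 425 CPM in them, and 426 CPM in TNF-labelled cluster 2, which is led by the mitotic genes Cdc20, Knstrn and Cdca3 and had 273 CPM of Top2a. Without both Top2a-high clusters, a setting that keeps TNF-labelled cluster 2, the count of chaperone genes at least 1.5-fold higher was 8, and Hspd1, whose ratio of 1.51 lay close to that limit, was not among them. For that setting the share of all genes was not computed.

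**Figure D4:**
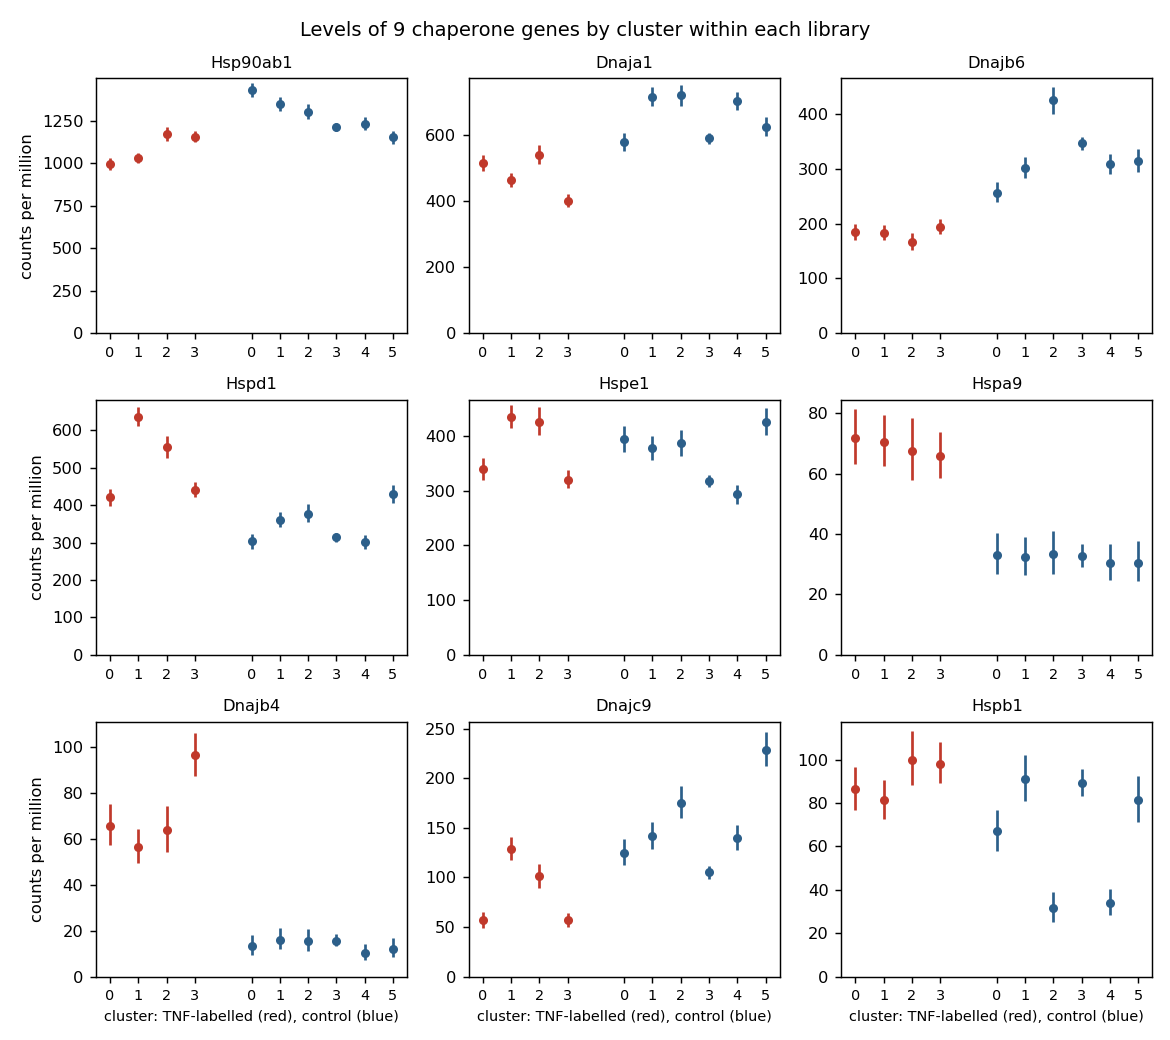
Level (vertical axes, CPM, from 0) of 9 chaperone genes in each cluster of at least 100 cells, with TNF-labelled clusters 0 to 3 in red, control clusters 0 to 5 in blue and exact Poisson 95% intervals as bars. Dnajb4 and Hspa9 separate the libraries in every cluster shown, Hspb1 is low in control clusters 2 and 4, and Dnajc9 is highest in control cluster 5.

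The spread from cell to cell could be read only coarsely at this depth. In cells thinned to 1700 counts, the variance divided by the mean, which is 1 for pure counting, lay between 0.964 and 1.30 for the genes with a mean of at least 0.02 counts. The highest value was that of Hspd1 among TNF-labelled cells, 1.30, while among control cells the same gene had 1.07. All genes with means of 0.3 to 1 count had medians of 1.09 and 1.06 and 90th percentiles of 1.33 and 1.23 in the TNF-labelled and control cells. Hspd1 thus lay below the 90th percentile in both. At such low means the measure stays near 1 even where levels differ: Hspb1 had 1.08 in the control cells, whose clusters differed 2.89-fold. Across cells, the 36 pairs of the 9 chaperone genes at 100 CPM or more in each library had correlations of log counts of -0.05 to 0.09 over 2728 TNF-labelled cells and -0.02 to 0.05 over 4753 control cells. Hspd1 with Hspe1 had the highest correlation among TNF-labelled cells, 0.09, and one of 0.03 among control cells. Counting error in sparse counts pulls correlations toward 0. Such values, over cells that share a library, cannot show whether the genes vary together.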

How the data were processed

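Single-cell RNA sequencing of IEC-6 cells gave 1 TNF-labelled and 1 control library, grouped by sample title. The authors deposited raw counts of each gene in each cell, with no sign of normalization in the values. Per the submitters' processing notes the build was Rnor_5.0. The aligner, counting tool, annotation, cell filter and use of molecular identifiers are details not given in the sources used here. No mean over samples was formed.

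Cells needed 500 counts, 300 genes and a mitochondrial share of up to 20%, which removed 1 of 5713 control barcodes and 0 of 3457 others. Library sums of each gene over the total gave CPM, 1 count being 0.0685 and 0.0413 CPM. Counts under 3 entered ratios at 3. Levels carry exact Poisson, ratios exact conditional binomial and shares exact Clopper-Pearson intervals. With 1 library per group no p-value was computed, and fixed sizes of 1.5-fold and 2-fold, at 5 CPM in either library, replaced a test. Clusters were made per library in scanpy 1.11.5 (2000 variable genes, 30 components, 15 neighbours, Leiden resolution 0.5). Doublets were not removed. Scaling alternatives used edgeR 4.0.16 and DESeq2 1.42.0. Gene names came from the deposited lists, and families and compartments from general knowledge. RefSeq tables (GRCr8) matched all 63 genes by symbol. Protein sequence features were planned but not analysed here. Values are given for genes with 100 CPM in either library, those 1.5-fold apart and the 5 largest and smallest ratios (28 genes), others more briefly. From partner lists the 2 most different genes with 10 CPM could be named. The genes and lists were chosen with earlier results of these data known. Simulated data for TNF-labelled over control (18256 genes) held counting error only, with no variation between libraries. Changed genes had a mean of at least 10 CPM. At 2-fold, tests on them called 34 of 34 genes raised and 33 of 33 lowered 3-fold, and 33 of 33 each at 5-fold. At 1.2-fold they called 0 of 34 and 0 of 33, and of unchanged genes 0 of 9339. These tests give no rate of false calls from variation between libraries.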

Additional observations from a re-analysis of the deposited data

How the results depend on the processing

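The results were recomputed under 13 other settings, 11 planned and 2, which left out the shared barcodes or the shallowest cluster of each library, chosen after seeing the data. Over 28 named genes, 303 of 361 values stayed inside the counting interval of the reported ratio and 58 lay outside it. Many of the 303 were fixed in advance. Settings that changed only the minimum level, summed rows of 1 symbol or added Hspb11, Hspbp1 and Hspbap1 leave each ratio as it was. Among the ratios past 1.5-fold, 0 changed side. Of the 16 genes past 1.5-fold, 7 missed it under some setting other than the minimum level (Dnajc9, Dnajb1, Hspa4l, Dnajc4, Hspd1, Dnajc2 and Dnajc25), and with thinned cells 7 were higher and 7 lower in place of 10 and 6. The median log2 ratio of 0.12 became 0.28 with TMM factors, 0.33 with median-of-ratios factors, 0.04 with a minimum of 20 CPM and 0.05 with no minimum. The 6 genes at least 1.5-fold lower became 3 with median-of-ratios factors and 11 with no minimum. The 2 at least 2-fold lower became 1 with TMM factors, median-of-ratios factors, a minimum of 20 CPM or thinned cells, 4 with a minimum of 1 CPM and 6 with no minimum. The rises with a lower minimum come from more genes being tested, 54 at 1 CPM and 61 with no minimum, and with 20 CPM 42 were tested. For the thinned cells the cause was not tested. Shares of all genes past 1.5-fold or 2-fold were not computed for any of the 13 settings. Depth limits the 15 genes under 5 CPM, where 3 counts, the floor used for ratios, are 0.205 against 0.124 CPM, and the exact interval of a count of 0 reaches 0.253 against 0.152 CPM. No paired analysis was possible because each group holds 1 library.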

Other observations

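The cytosolic chaperonin TRiC, a ring of different subunits that folds actin and tubulin, and its helper prefoldin were measured beside the heat shock proteins. Among 14 genes, 4 passed 1.5-fold upward and 2 downward in the TNF-labelled library, against 17.1% and 22.9% of all genes. Subunits of the ring differed in direction. Cct2 stood at 794 against 334 CPM (ratio 2.38, 2.31 to 2.45) and Tcp1 at 644 against 282 CPM (ratio 2.28, 2.21 to 2.35), whereas Cct4, singled out after its value was seen, stood at 155 against 276 CPM (ratio 0.564). These are values of 1 library per group.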
